A study of Mus musculus with 7 samples.

Results

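Transcription factors named by family were followed in cells of the mouse mammary gland sorted into a side population (SP) and the remaining non-side population (NSP). The members are the rows of the authors' list of 1632 probe sets whose gene name or description holds a transcription factor family term: transcription factor, homeobox (or homeo box), forkhead, SRY-box, Kruppel, zinc finger protein, nuclear receptor subfamily, ets variant or GATA binding. The term stood in 58 rows. Sox17 was left out by the rule, as Mecom, Hes1, Hey1 and Trp63 would have been, which left 57 probe sets for 53 genes, out of 45101 probe sets on the array and 1311 genes named in the list. The rule reads names, not values, but the authors had drawn up the list by a paired test on these same arrays, so directions and calls among the members are not independent evidence that the cells differ.

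SP cells are cells that pump out the DNA dye Hoechst and appear as a dim tail in flow cytometry, and NSP cells are those that keep it. RNA of each sorted population was amplified in 2 rounds and hybridised to Affymetrix mouse arrays, and 3 SP arrays, 3 NSP arrays and 1 array of universal mouse reference RNA were analysed here. The strain, age and treatment of the mice, and whether the sorts came from separate animals, are not given in the sources used here, so every p-value below reflects array-to-array spread that may be technical. Both sorted groups are mixtures of cell types gated on dye alone.

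Transcription factors are proteins that bind short DNA motifs near genes and raise or lower their transcription. They are grouped into families by the protein domain they share: homeobox proteins set position and cell identity along the body, GATA, SRY-box, ets and forkhead factors steer blood, vessel and epithelial fates, nuclear receptors often respond to small lipophilic molecules, and zinc finger proteins form the largest and least studied group. In the mammary gland such factors separate the basal from the luminal epithelium and both from the surrounding stroma and vessels.

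Of the 53 genes, 26 had a higher mean log2 signal in SP and 27 in NSP cells (49.2% of all tested probe sets were higher in SP), with a median SP minus NSP difference of -0.018, where the 1311 listed genes had a median of -0.13 and all 38115 tested probe sets one of -0.0080. By family the split was uneven in number. Homeobox genes were higher in SP cells in 9 of 12 cases (median difference 0.41), and both nuclear receptors were higher too. Of the 16 DNA-binding members named zinc finger protein, 6 were higher and 10 lower in SP cells (median -0.25), against 17 higher and 10 lower among the other 27 DNA-binding members (median 0.29). The remaining 10 members do not bind DNA by sequence despite their names, and 7 of them were lower in SP cells. These counts describe the list and were not tested against each other.

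The median size of the differences was close to that of the whole list, while a smaller share of members exceeded 2-fold or kept the same sign in every pair. In all, 3 members (Sox10, Zfp185 and Rnf128) differed by more than 2-fold, all lower in SP cells, compared with 159 of the 1311 listed genes, and the median absolute difference was 0.38 log2 units for the members and 0.39 for the listed genes. The difference had the same sign in 3 of 3 pairs for 38 of the 53 genes, against 1056 of the 1311 listed genes. For 11 genes all 3 SP arrays lay above all 3 NSP arrays and for another 11 the reverse held. Over all tested probe sets the groups did not overlap in 14.3% (6.74% with SP above and 7.57% with NSP above), and among the listed probe sets in 49.8%.

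In the limma fit with the pairs as a block, 0 of 38115 probe sets (0.0%) and hence 0 members passed a Benjamini-Hochberg adjusted p of 0.05. At an unadjusted p under 0.05 stood 3758 probe sets (9.86%) and 15 of the 57 member probe sets. Letting limma's prior variance follow the signal intensity, with the same block, gave 942 calls (2.47%), of which 1.16% of the probe sets tested were higher and 1.31% lower in SP cells. It called 9 of the 53 genes: Tcfl5, Plagl1, Meox2 and E2f7 higher, and Glis2, Zbtb18, Runx1, Rnf128 and Zfp185 lower. Among the listed probe sets the share called by that fit was 27.9%. Below, "intensity-trend adjusted p" is the value of this second limma fit, and a difference is SP minus NSP in log2 signal ± the moderated standard error of the first, with 3 pairs.

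**Figure D1:**
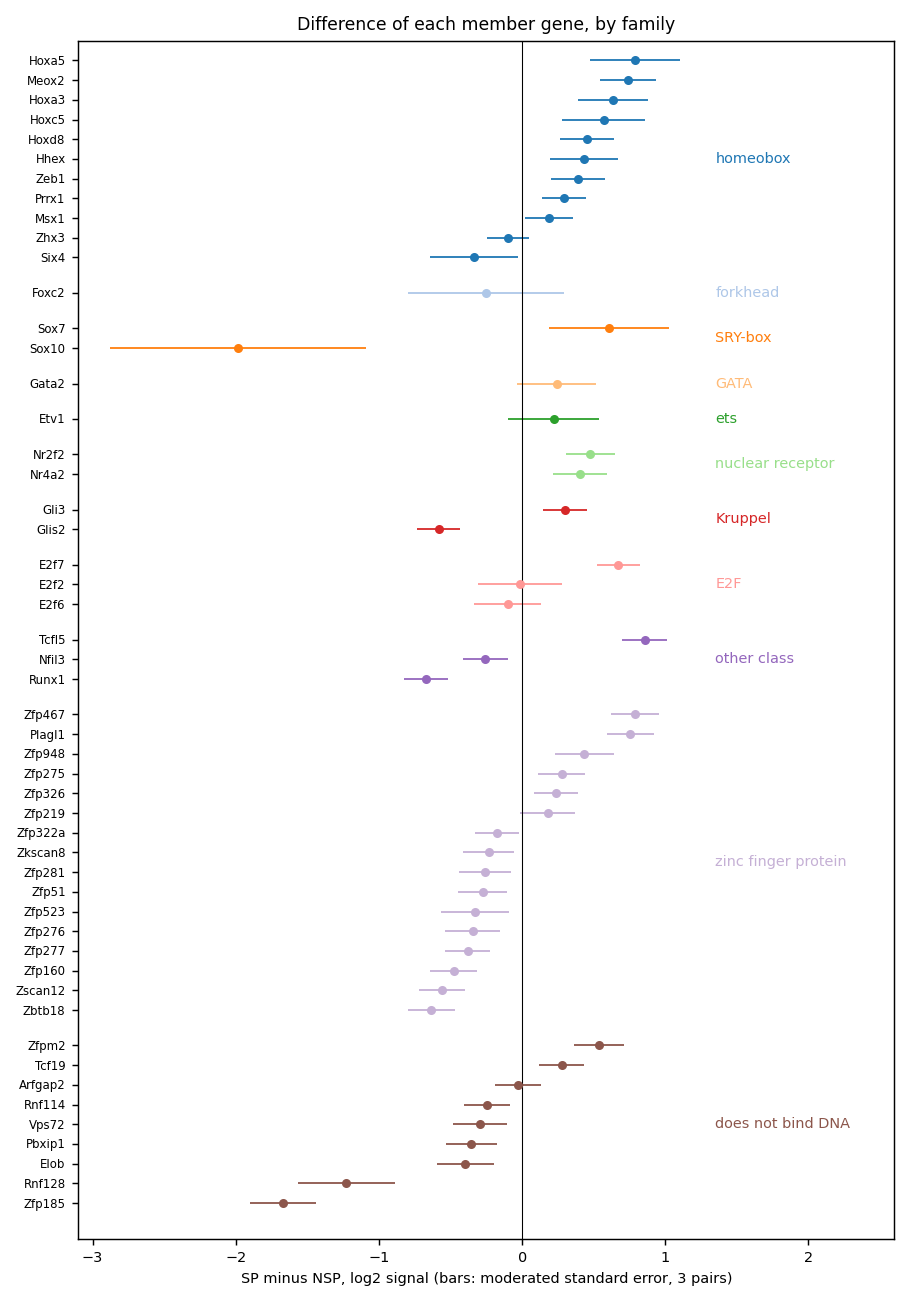
The horizontal axis gives the SP minus NSP difference in log2 signal for 51 genes, grouped and coloured by family, with bars for the moderated standard error over 3 pairs. Homeobox genes lie mostly to the right of 0, DNA-binding zinc finger proteins mostly to the left (10 of 16), and Sox10 has both the lowest value and the widest bar.

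Markers of several cell types that are named in the authors' list also differed between the sorts. That list was drawn up by a paired test on these same arrays, so the marker counts are not independent evidence. Markers outside the list were not read. All 11 named genes of a list of 16 endothelial markers were higher in SP cells, and their summed signal was 11070 to 12250 on the SP arrays against 3843 to 4068 on the NSP arrays. All 5 named of 9 fibroblast and pericyte markers were higher as well (summed signal 16670 to 19330 against 8527 to 11310). Most of that sum was Dcn, at 12354 to 15356 on the SP and 6111 to 7621 on the NSP arrays. Dcn, Abcc9 and Col1a2 did not overlap between the groups, while Pdgfra and Rgs5 did. In contrast, 4 of 4 named basal and 6 of 6 named luminal epithelial markers were lower. The 5 named leukocyte markers summed to 502 to 760 on the SP and 3446 to 11170 on the NSP arrays, with 4 of 5 lower in SP cells and Ptprc below the floor on 1 SP array. In sorted bulk samples fewer cells of a type and less RNA per cell cannot be told apart. The part of these marker shifts in the values below was not tested. Another measure that moved with the groups was the log2 ratio of 3' to 5' signal of the control gene Gapdh, a sign of RNA length, which was 3.04 to 4.35 on the SP and 2.14 to 3.35 on the NSP arrays and was higher in SP in 3 of 3 pairs, as was that of Actb. The part of RNA length in the values below was not tested either.

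Homeobox genes, which set regional identity in the embryo and in stromal cells of the adult, made up the largest DNA-binding family after the zinc fingers. Signals are given here and below for arrays 1, 2 and 3 of each group, numbered by pair. Hoxa5, a HOX factor of the anterior trunk, read 206, 328 and 209 on the SP arrays and 167, 224 and 72.9 on the NSP arrays. Its groups overlapped, since the second NSP array was above 2 of the SP arrays, and the difference of 0.79 ± 0.31 rested most on the third pair (limma adjusted p = 0.54). Hoxa3 read 204.5, 293 and 269 on the SP and 189, 147 and 156 on the NSP arrays, with no overlap and a difference of 0.63 ± 0.25. Hoxc5 read 1378, 902 and 497 on the SP and 692, 513 and 533 on the NSP arrays, so that the third pair ran the other way (0.57 ± 0.29). Hoxd8 read 369, 299.5 and 358 on the SP and 222, 262 and 264 on the NSP arrays, without overlap (0.45 ± 0.19). None of these 4 HOX genes, which lie in 3 of the HOX clusters, passed either limma fit (lowest intensity-trend adjusted p = 0.21 for Hoxc5).

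Meox2, a homeobox factor that restrains growth in vascular cells, read 519.5, 793 and 968 on the SP arrays and 369, 500.1 and 465 on the NSP arrays. Every SP array was above every NSP array, and each pair agreed in sign. The difference was 0.74 ± 0.19, which is 1.67-fold, with a limma adjusted p of 0.44 and an intensity-trend adjusted p of 0.036. On the reference array Meox2 read 15.1, below the floor of 17 set for the fit, so both sorted populations stood far above a pool of other mouse RNAs for this gene.

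The region upstream of Meox2 is shown as an example of a homeobox promoter whose gene was called by the second fit, from RefSeq on GRCm38.p6, chr12:37108290-37108539, plus strand, ending at base -1 before the annotated start. Capitals mark the letters TATAAA on the opposite strand, first base at -29. They occur on either strand in 13.6% of 32851 mouse promoters of the same table.
Meox2: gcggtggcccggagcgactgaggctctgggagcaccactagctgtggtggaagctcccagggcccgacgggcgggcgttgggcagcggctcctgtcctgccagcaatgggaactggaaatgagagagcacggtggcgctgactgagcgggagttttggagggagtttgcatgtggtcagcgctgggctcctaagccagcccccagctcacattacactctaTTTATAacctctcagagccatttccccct

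Smaller SP excesses were seen for other homeobox genes. Zeb1, a zinc finger homeobox repressor of E-cadherin, differed by 0.39 ± 0.19 and all 3 SP arrays lay above the NSP arrays (intensity-trend adjusted p = 0.080). The E-cadherin gene Cdh1, counted among the luminal markers, was lower in SP cells, from 1851 to 3046 on the SP arrays against 5577 to 7222 on the NSP arrays. The other named luminal markers were lower in SP cells as well, and the part of Zeb1 in the Cdh1 difference was not tested. Hhex, which acts in early blood and endothelial precursors, read 210, 204 and 178 on the SP and 158, 203 and 96.6 on the NSP arrays (0.43 ± 0.24). Its second pair was level to within 0.0057 log2 units.

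Prrx1, a homeobox factor of limb and craniofacial mesenchyme, was covered by a pair of listed probe sets. The brighter read 3645, 2674 and 2362 on the SP and 3151, 2137 and 1861 on the NSP arrays, overlapping between groups but higher in each pair (0.29 ± 0.15, intensity-trend adjusted p = 0.12). The dimmer read 1976, 1814 and 1598 on the SP and 1337, 1330 and 1095 on the NSP arrays, without overlap (0.52 ± 0.15, intensity-trend adjusted p = 0.019). Both probe sets thus gave the same direction, and only the dimmer passed the second fit.

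The homeobox genes with the smallest differences included Prrx1, Msx1, Zhx3 and Six4. Msx1, which acts in the embryonic mammary bud, read 378, 511 and 458 on the SP and 318, 519.5 and 364 on the NSP arrays (0.19 ± 0.17). Zhx3, a zinc finger and homeobox repressor, read 157, 148 and 229 on the SP and 163, 163.5 and 247 on the NSP arrays, lower in each pair by 0.050 to 0.14. Neither difference exceeded the spread between arrays. Six4, a sine oculis family factor of muscle and placode development, read 128, 135 and 93.3 on the SP and 101, 249 and 130 on the NSP arrays (-0.34 ± 0.31), with pairs of opposite sign.

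The SRY-box, GATA, forkhead and ets members belong to families that mark vessels, blood and epithelium, and several of their values depended on how the arrays were summarised. Sox7, an SRY-box factor of endothelial cells, read 177, 190.3 and 308 on the SP and 153, 195.5 and 98.2 on the NSP arrays. The groups overlapped and the second pair was slightly reversed, giving 0.61 ± 0.42. In the authors' deposited table of dChip values, which are on a log scale read here as log2, the same arrays gave 8.69, 8.79 and 8.83 for SP and 7.19, 7.03 and 6.90 for NSP, a deposited difference of 1.73 with no overlap.

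Gata2, a GATA factor of blood stem cells and endothelium, read 385, 518 and 493 on the SP and 462, 458 and 282 on the NSP arrays. It overlapped between groups in MAS5 signal, with a difference of 0.24 ± 0.27. In the authors' deposited table it read 10.29, 10.55 and 9.83 for SP and 9.32, 9.48 and 8.70 for NSP, a deposited difference of 1.06. Sox7 and Gata2, with E2f2 and Tcfl5, are the 4 members in the authors' shortest list of 90 probe sets.

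Sox10, a neural crest factor that also acts in mammary basal and progenitor cells of the mouse, read 9.0, 162 and 192 on the SP and 340.2, 217 and 444 on the NSP arrays. The groups did not overlap, and the first SP array was below the floor of 17. The difference was -1.99 ± 0.89 (limma adjusted p = 0.57, intensity-trend adjusted p = 0.14), and it was -0.86 without that array. In the authors' deposited table the dChip values were 8.18, 8.05 and 8.31 for SP and 8.66, 8.64 and 8.75 for NSP, with a deposited difference of -0.50 and no low array.

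Foxc2, a forkhead factor of lymphatic and vascular development, read 53.0, 378 and 245 on the SP and 167, 285 and 174 on the NSP arrays. Its mean was lower in SP cells (-0.25 ± 0.54), but only because of the first SP array, and without it the difference was 0.59. In the authors' deposited table every dChip value was higher in SP than in NSP within its pair, with a difference of 0.52. Etv1, an ets factor of the PEA3 group, read 57.8, 135 and 142 on the SP and 72.8, 131 and 73.5 on the NSP arrays (0.22 ± 0.32). The authors' deposited table gave 0.76, with a present call for Etv1 on only 33% of the SP and 66% of the NSP arrays.

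**Figure D2:**
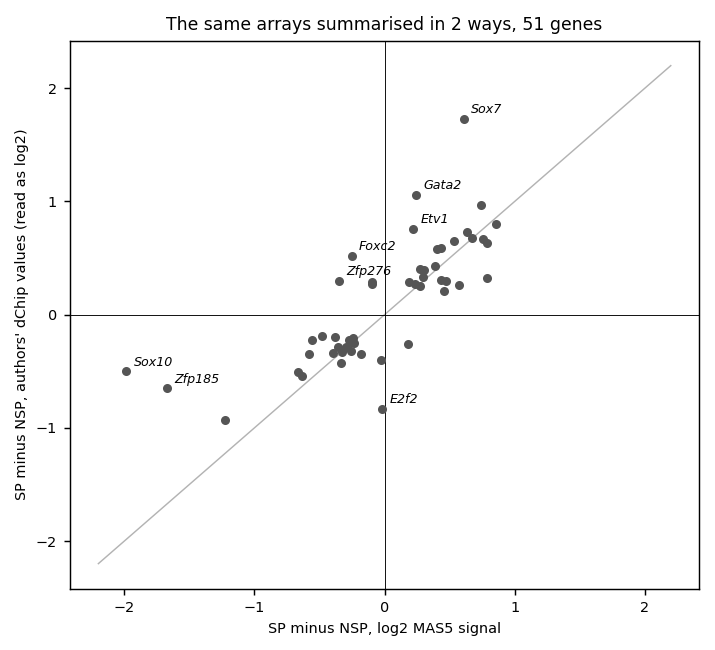
Each point is 1 of 51 genes, with the SP minus NSP difference in log2 MAS5 signal on the horizontal axis and the authors' deposited dChip difference, read as log2, on the vertical axis. The grey line marks equal values. Sox7 and Gata2 lie above it, Sox10 and Zfp185 lie to its left with larger MAS5 differences, and E2f2 reads -0.018 on one axis and -0.83 on the other.

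Over all 53 genes the sign differed between both summaries for 5: Foxc2, E2f6, Zhx3, Zfp219 and Zfp276. Of these, Foxc2, E2f6, Zhx3 and Zfp276 were higher in SP cells in the authors' deposited table and lower in MAS5 signal, and Zfp219 was the reverse. Zfp219 had 0.18 ± 0.19 in MAS5 signal and -0.26 in the authors' deposited table. Their MAS5 differences, from -0.35 to 0.18, were within 2 standard errors of 0. The authors' deposited table has 29 of the 53 genes higher in SP cells, with a median difference of 0.26. No member has a deposited difference between -0.19 and 0.21, so this median could not lie near 0.

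Both nuclear receptors were higher in SP cells. Nr2f2, also called COUP-TFII, a factor of venous endothelium and of mesenchyme, read 628, 951.5 and 865 on the SP and 509, 590.2 and 639.5 on the NSP arrays. Only the first SP array fell within the NSP range, and each pair had the same sign (0.48 ± 0.17, intensity-trend adjusted p = 0.13). Nr4a2, an orphan receptor transcribed early after many stimuli, read 484, 346 and 423 on the SP and 297, 302 and 341 on the NSP arrays. Its groups did not overlap (0.40 ± 0.19, intensity-trend adjusted p = 0.40).

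The Kruppel members went in opposite directions. Gli3, the Hedgehog pathway factor that also acts in mammary bud formation, had a pair of listed probe sets. The brighter read 1656, 1809 and 1359.6 on the SP and 1392, 1374 and 1139.8 on the NSP arrays, with overlap (0.30 ± 0.15). The dimmer read 1502, 1871 and 1296 on the SP and 1022, 1052 and 1024 on the NSP arrays, all SP above all NSP (0.58 ± 0.18, intensity-trend adjusted p = 0.030). Glis2, a related zinc finger factor studied in the kidney, read 583, 667.5 and 551 on the SP and 850.1, 1044 and 811 on the NSP arrays. Its groups did not overlap and the pairs differed by -0.54 to -0.65, for a difference of -0.58 ± 0.15 (limma adjusted p = 0.44, intensity-trend adjusted p = 0.037).

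E2F factors control the entry into and the passage through DNA synthesis, E2f2 as an activator and E2f6 and E2f7 as repressors. E2f7 read 873, 998 and 601 on the SP and 577, 609 and 369 on the NSP arrays. The groups overlapped because both arrays of pair 3 were low, but every pair was higher in SP cells, by 0.60 to 0.71. The difference was 0.67 ± 0.15, a factor of 1.59 (limma adjusted p = 0.41, intensity-trend adjusted p = 0.026).

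The upstream region of E2f7 is shown because the gene codes for an E2F factor and its own promoter holds the E2F letters (RefSeq, GRCm38.p6, chr10:110745189-110745438, plus strand, ending at base -1). Capitals mark TTTNNCGC read on the opposite strand, first base at -198, which 5.17% of the 32851 promoters hold on either strand. Of the 53 promoters that belong to 41 members, 6 hold it.
E2f7: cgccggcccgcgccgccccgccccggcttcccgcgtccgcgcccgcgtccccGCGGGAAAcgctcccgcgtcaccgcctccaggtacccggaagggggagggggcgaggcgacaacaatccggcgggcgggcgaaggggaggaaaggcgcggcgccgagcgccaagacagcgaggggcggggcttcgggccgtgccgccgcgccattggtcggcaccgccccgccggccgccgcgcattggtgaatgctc

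In MAS5 signal, E2f2 and E2f6 did not share the direction of E2f7. E2f2 read 41.5, 94.3 and 46.2 on the SP and 64.8, 65.1 and 44.5 on the NSP arrays, with a difference of -0.018 ± 0.29 and pairs of both signs. In the authors' deposited table it read 6.46, 6.97 and 6.63 for SP and 7.36, 7.77 and 7.42 for NSP, which is -0.83 without overlap. A present call for E2f2 stood on only 33% of the SP and 66% of the NSP arrays. E2f6 read 254, 201 and 269 on the SP and 207, 293.5 and 278 on the NSP arrays (-0.100 ± 0.23), against 0.27 in the authors' deposited table. E2f8, the other atypical E2F and no member by name, read 766, 1156 and 972 on the SP and 499, 655 and 315 on the NSP arrays (1.02 ± 0.27, intensity-trend adjusted p = 0.016).

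The next members bind DNA through other folds. Tcfl5, a basic helix-loop-helix factor of spermatogenesis, read 2324, 2114 and 1476 on the SP and 1257, 1280.5 and 762 on the NSP arrays. All SP arrays were above all NSP arrays, by 0.85 ± 0.16 or 1.81-fold (limma adjusted p = 0.39, intensity-trend adjusted p = 0.0016). The row's description names the adjacent collagen gene Col9a3 while its name column gives Tcfl5, so which transcript this probe set reads is uncertain.

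Runx1, the core factor of definitive blood formation and a regulator of the luminal mammary epithelium, read 891.5, 796 and 729 on the SP arrays. On the NSP arrays it read 1383, 1370.2 and 1098, above every SP array. The pairs differed by -0.59 to -0.78, for a mean of -0.67 ± 0.15 or 1.59-fold higher in NSP cells (limma adjusted p = 0.42, intensity-trend adjusted p = 0.011). Luminal and leukocyte markers were also lower in SP cells, and the part of either in the Runx1 difference was not tested. Nfil3, a basic leucine zipper factor needed for natural killer cells, read 178, 169.8 and 254 on the SP and 211, 218 and 284 on the NSP arrays (-0.26 ± 0.15).

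For Runx1, a short stretch at the first of 2 annotated starts is shown since it holds the letters of the factor's own binding motif (RefSeq, GRCm38.p6, chr16:92826029-92826058, minus strand, bases 17 to 46 after the start). Capitals mark TGTGGT on the opposite strand, at 29 and 37. The motif is found on either strand in 16.8% of all promoters and in 7 of the 53 promoters of members. The Meox2 stretch above holds it as well, at -208 and -80.
Runx1: acctcataaacaACCACAgaACCACAagtt

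**Figure D3:**
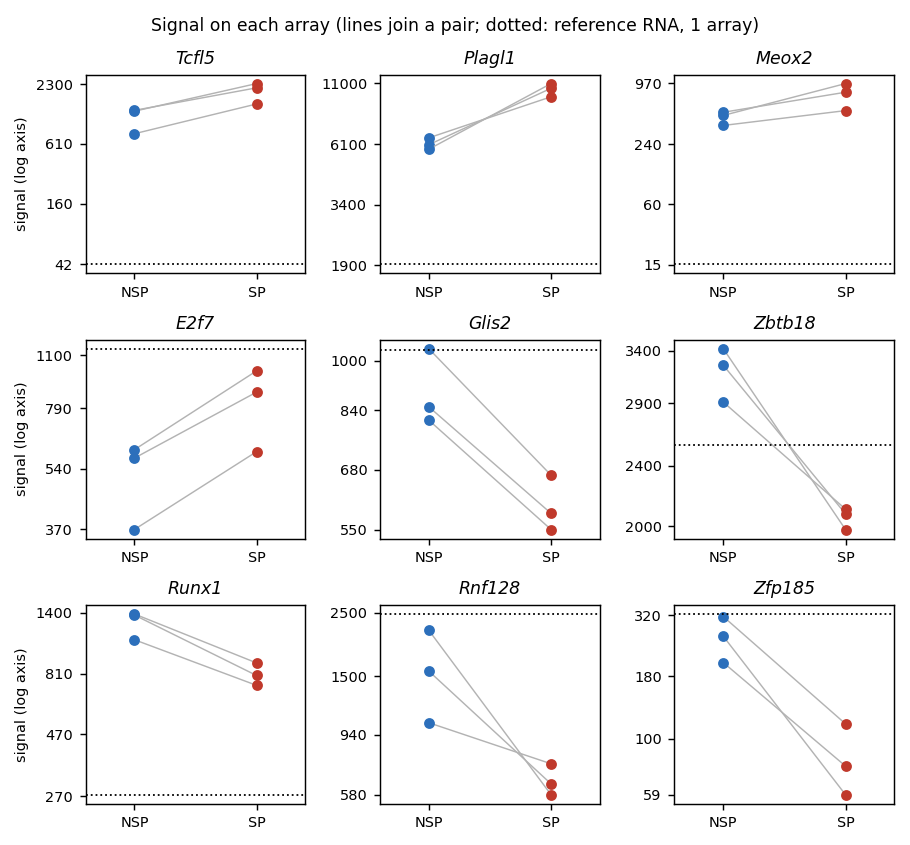
Each panel gives the signal of 1 gene (log axis, own scale) on the 3 NSP and 3 SP arrays, with grey lines joining the arrays of a pair and a dotted line at the single reference array. The 9 genes are those with an intensity-trend adjusted p under 0.05, and every line runs upwards for the 4 genes Tcfl5, Plagl1, Meox2 and E2f7 and downwards for the other 5.

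Zinc finger proteins were the largest family, with 21 genes, 7 of them higher and 14 lower in SP cells. Many carry a KRAB domain and silence transposons, and most have no known role in the mammary gland. Plagl1, or Zac1, an imprinted gene that slows growth, was the brightest member, at 10466, 10953 and 9644 on the SP and 6078, 5821 and 6493.5 on the NSP arrays. The groups lay well apart, by 0.76 ± 0.17 or 1.69-fold (limma adjusted p = 0.40, intensity-trend adjusted p = 0.00085). Its probe set is of a type (x_at) that can also bind related transcripts.

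Zfp467, which acts in the choice between fat and bone cells in mice, read 139, 158 and 196 on the SP and 75.5, 85.2 and 131 on the NSP arrays. It had the largest SP excess of the family (0.79 ± 0.17) and no overlap, but with its low signal an intensity-trend adjusted p of 0.37. Zfp948 read 1225, 1264 and 1545.5 on the SP and 774, 1219.5 and 1028 on the NSP arrays (0.43 ± 0.21). Zfp275 read 1610.2, 2319 and 2314 on the SP and 1486.5, 1699.6 and 1927.5 on the NSP arrays, with overlap (0.28 ± 0.16). Zfp326, an RNA- and DNA-binding nuclear protein, differed by 0.24 ± 0.15.

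On the lower side, Zbtb18, a BTB-domain repressor best known from the brain and muscle, read 2076, 1980.1 and 2106 on the SP and 3254, 3421 and 2911 on the NSP arrays. It was lower on every SP array and in each pair, by -0.63 ± 0.16 or 1.55-fold (limma adjusted p = 0.44, intensity-trend adjusted p = 0.0048). Zscan12 read 102.5, 109 and 72.4 on the SP and 133, 177 and 110.5 on the NSP arrays, without overlap (-0.56 ± 0.16, intensity-trend adjusted p = 0.58). Zfp160 read 245.5, 215 and 235 on the SP and 309, 341 and 318 on the NSP arrays, also without overlap (-0.48 ± 0.17). The other 7 DNA-binding members of the family that were lower in SP cells were Zfp277 (-0.38), Zfp276 (-0.35), Zfp523 (-0.33), Zfp51 (-0.28), Zfp281 (-0.26), Zkscan8 (-0.23) and Zfp322a (-0.18). The differences of these 7 genes did not pass either limma fit.

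The 10 members that do not bind DNA by sequence included 2 of the 3 members that differed by more than 2-fold. Zfp185, an actin-associated LIM protein of epithelial cells, read 77.4, 59.1 and 115 on the SP and 205, 263 and 316 on the NSP arrays. Each NSP array was above each SP array and the pairs differed by -1.41 to -2.15, for a mean of -1.67 ± 0.23 or 3.19-fold (limma adjusted p = 0.38, intensity-trend adjusted p = 0.026). In the authors' deposited table the difference was -0.65, with a present call on 33% of the SP and 100% of the NSP arrays. Rnf128, or GRAIL, a membrane ubiquitin ligase known from T cell anergy, read 633, 580.1 and 744 on the SP and 1564, 2169 and 1033 on the NSP arrays, again without overlap (-1.23 ± 0.34, 2.34-fold, intensity-trend adjusted p = 0.012). Epithelial markers moved the same way, and their part in these differences was not tested.

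Of the others without DNA binding, Zfpm2 (FOG2) is a cofactor of GATA factors and read 546, 638.5 and 532 on the SP and 437, 434 and 321 on the NSP arrays, all SP above all NSP (0.54 ± 0.17). Tcf19, a PHD finger protein that peaks in dividing cells, read 1155, 1137 and 999.6 on the SP and 929, 878 and 909 on the NSP arrays (0.28 ± 0.16).

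The elongin subunit Elob read 766.5, 671 and 958 on the SP and 1059.5, 1061 and 999 on the NSP arrays, lower in each pair (-0.40 ± 0.20). Pbxip1, which holds PBX homeobox proteins out of the nucleus, read 624, 585 and 648 on the SP and 671, 760.5 and 968 on the NSP arrays (-0.35 ± 0.18). Vps72, a chaperone of the histone variant H2A.Z, read 359, 315 and 314 on the SP and 362, 393 and 461 on the NSP arrays (-0.30 ± 0.19). For all 3 genes every NSP array was above every SP array, and none passed either fit. The ubiquitin ligase Rnf114 differed by -0.25 ± 0.16 at its brighter and by 0.024 ± 0.15 at its dimmer probe set, and Arfgap2, of vesicle traffic, by -0.029 ± 0.16.

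The reference RNA is a pool from mouse cell lines hybridised to 1 array and so without a replicate check. On all 6 sorted arrays 13 members were above the reference and 23 below it, while 17 lay astride it. Among the 1311 listed genes the same counts were 443 above, 504 below and 364 astride. Tcfl5 stood 5.53 log2 units above the reference in SP and 4.68 in NSP cells, with 41.8 on the reference array. E2f6 and Zhx3, whose SP and NSP groups overlapped in MAS5 signal, were 2.55 and 2.51 above it in SP cells. Furthest below was Etv1, at -2.66 in SP and -2.88 in NSP cells. Among zinc finger proteins 12 of 21 were below the reference on all 6 arrays (8 of the 16 that bind DNA), among homeobox genes 4 of 12. The families were not tested against each other or against the list.

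**Figure D4:**
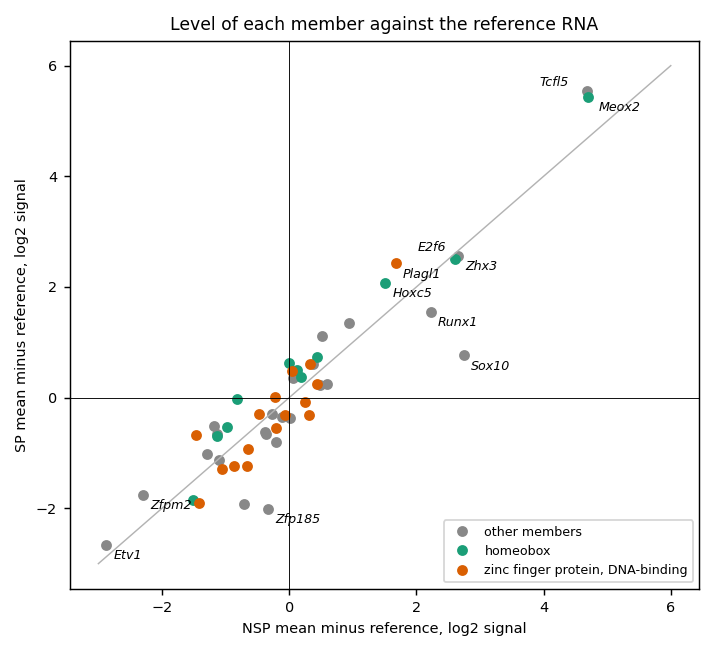
The mean log2 signal of 51 genes minus that of the single reference array is plotted for NSP cells on the horizontal and SP cells on the vertical axis, with signals under 17 set to 17 and the grey line marking equal values. Distances from the reference reach 5.53 for Tcfl5, while most genes lie close to the line, and Sox10, Zfp185 and Rnf128 fall below it.

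Members and other listed genes were also read by function, from lists of regulators, and regulators outside the authors' list were not read. Of 27 endothelial and blood-forming regulators 10 were named, 6 of them members, and 9 of the 10 were higher in SP cells (median 0.48), with 3 passing the intensity-trend fit, beside 27.9% of the listed probe sets. Those 3 were Meox2, the ets factor Erg and the B cell and stromal factor Ebf1. Erg read 566, 527 and 469 on the SP arrays and between 138 and 222.5 on the NSP arrays (1.504 ± 0.19, intensity-trend adjusted p = 0.0033), a larger difference than that of any member higher in SP cells. Ebf1 differed by 0.49 ± 0.17 (intensity-trend adjusted p = 0.020).

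The cell cycle regulators gave 6 named of 17, with 5 higher in SP cells (median 0.29) and E2f7 and E2f8 passing the intensity-trend fit, again near the 27.9% of the listed probe sets. All 4 named of 19 immediate early factors were higher in SP cells, without a call (median 0.38), with Jun at 0.39 ± 0.20 and Myc at 0.36 ± 0.15. Of 21 basal and mesenchymal regulators 4 were named, 3 of them higher (Zeb1, Prrx1 and Twist2) and Sox10 lower, without a call. Twist2 differed by only 0.14 ± 0.20, with overlapping groups and a reversed second pair. The 24 luminal regulators gave Runx1, lower, and Id2, higher at 0.29 ± 0.17. Of 33 signal-regulated factors 5 were named, 3 higher and 2 lower in SP cells. None of 31 leukocyte regulators was named in the list.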

How the data were processed

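Signals of 45101 probe sets on 7 arrays (3 SP, 3 NSP, 1 reference) were used as deposited. The authors' deposited values are linear intensities, and the submitters' processing notes name MAS5 as their source. Its version and scaling factor were not stated there. Median signals lay between 79.3 and 97.2. The authors' deposited table adds dChip values on a log scale, read as log2 although its headers do not state the base. Those of the authors' shorter lists that are named by a fold change hold members below that fold in log2 units (Tcf19 at 0.4). The base is therefore uncertain. The deposited table also gives p-values of their paired t-test (used by the authors to choose the list) and the percent of arrays with a present call. The design text states that 2 chips were removed as outliers.

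Signals were floored at 17, the 20th percentile over all sorted arrays together, and log2-transformed. The 64 control probe sets were left out, and the 38115 probe sets above the floor on at least 3 of 6 arrays were tested with limma 3.58.1 in R 4.3.3 by lmFit and eBayes (two-sided, Benjamini-Hochberg, threshold 0.05). The pair was a block, since the labels give 2 of 3 pairs a shared day and the authors' headers show a paired comparison. Deviations of the same number correlated at 0.039, 0.041 and 0.12, each highest with its own number. The number of arrays limits the precision. The scripts were tested on simulated data.

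Each gene took its brightest member probe set. Gene numbers of all 57 probe sets matched a RefSeq gene table, and 41 of 53 genes had a promoter in the RefSeq table. Families of up to 6 genes were named with every array's signal, larger ones by their 5 largest and 5 smallest differences, others by difference alone, and up to 4 genes per regulator list. Members, lists and families were chosen with earlier results of these data known, and Zfpm2 and Tcf19 were placed among the members that do not bind DNA after values had been seen. Of the genes the rule names, 2 are not reported here singly or drawn. Alternatives covered normalization, floor, filter, variance model, block, test and left-out arrays.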

Additional observations from a re-analysis of the deposited data

How the results depend on the processing

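The count of members higher in SP cells stayed between 26 and 30 of 53 under every alternative run, including the authors' dChip differences. Of the 51 genes followed singly, 43 kept their sign in all 16 alternatives run per gene. Alternatives that change only the block, the variance model or the filter leave a fitted gene's difference unchanged, so they could not reverse a sign. The median difference lies near 0 and changed sign to 0.012 with quantile normalization and 0.11 with a floor at the 40th percentile. It was 0.080 when all 6 arrays had to pass the floor and 0.26 in the authors' deposited table. No member has a deposited difference between -0.19 and 0.21, so the median there could not lie near 0. With 1 array left out the median ranged from -0.0095 to 0.18. Calls depended on the variance model. Without the replicate block 6 probe sets (0.0157%) and 0 members passed, with an intensity trend and the block 942 and 11 member probe sets, and with the trend but no block 381 (1.0%) and 3 (Plagl1, Zbtb18 and Rnf128). The methods' paired t-test, run on the MAS5 signals at the authors' threshold, gave 2878 of the 38115 tested probe sets and 19 of the 57 member probe sets. After Benjamini-Hochberg it gave 0 of each. The members had been listed by a paired test on these same arrays. With quantile normalization Arfgap2 read 0.0075 and E2f2 0.012, and E2f2 read 0.11 with the higher floor. With 1 array left out the ranges that crossed 0 were -0.18 to 0.16 (Arfgap2), -0.39 to 0.21 (E2f2), -0.25 to 0.026 (E2f6), -0.0095 to 0.64 (Etv1), -0.83 to 0.59 (Foxc2), -0.62 to 0.038 (Six4), -0.72 to 0.010 (Zfp276) and -0.29 to 0.10 (Zhx3). The causes were not tested. The limma fits with an array left out had no block, and 0 members passed, as in the fit of all 6 arrays without the block. Sox10 could not be fitted where all 6 arrays had to pass the floor.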

Other observations

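Several members are neighbours of other zinc finger genes on their chromosome in the RefSeq annotation, in clusters of genes that arose by duplication. Zfp51, which lies between Zfp54 and Zfp53 on chromosome 17, was lower in SP cells in each pair (-0.28 ± 0.17), while Zfp948, next to Zfp52 on the same chromosome, was higher in each pair (0.43 ± 0.21). Zscan12 and Zkscan8, each beside another ZKSCAN gene on chromosome 13, were both lower (-0.56 ± 0.16 and -0.23 ± 0.18). Since related zinc finger genes share sequence, signal from a near-identical transcript cannot be told apart here.

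In the promoter windows of 41 members (53 promoters, 250 bases before to 50 after the start) 5 further short motifs were searched on both strands. The ETS letters CCGGAA stood in 17 of the 53 windows, against 14.9% of all 32851 promoters, and the GC box GGGCGG in 31, against 35.7%. The CCAAT box CCAAT stood in 24 (37.4% of all promoters), the SOX letters AACAAT in 6 (10.7%) and the GATA letters AGATAA in 2 (11.2%). Windows of 1 gene can overlap, and a match describes letters only.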
